A study of Homo sapiens with 16 samples.

Results

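CYC1 KO and UQCRFS1 KO are monoclonal knockout derivatives of A673, a human Ewing sarcoma cell line, each made in a different subunit of respiratory complex III. Their 4 libraries from DMSO-treated cells, 2 of each clone, were compared with each other across all genes, out of 16 libraries in the series. All of these cells received 0.1% DMSO, the solvent, for 48 h. The 2 DMSO libraries of unedited A673 give the level of each gene in the parental line. The same clones treated for 48 h with SP-2509 at 500 nM give the clone difference in 4 further libraries. SP-2509 blocks LSD1, a demethylase of histones that KDM1A encodes. The remaining libraries were A673 with SP-2509 and an MRPL45 knockout of A673 with DMSO or SP-2509. They entered the fit that gives the p-values. Each knockout is represented by 1 clone, so a difference between the knockouts and a difference between any 2 clones of A673 cannot be told apart. No label says that replicate libraries came from separate cultures, so p-values measure only the spread between libraries, which may be technical.

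Complex III of the inner mitochondrial membrane takes electrons from reduced coenzyme Q and passes them to cytochrome c. CYC1 encodes cytochrome c1, which hands the electrons to cytochrome c, and UQCRFS1 encodes the Rieske iron-sulfur protein, which carries them there from coenzyme Q. The Rieske protein is inserted late in assembly, with the chaperone LYRM7 and the translocase BCS1L. Loss of complex III is known to limit the oxidation of coenzyme Q and, through it, the synthesis of pyrimidines and aspartate. Ewing sarcoma cells such as A673 depend on EWSR1::FLI1, a fused transcription factor that activates some genes and represses others.

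Total counts were 46064569 and 43813692 in the CYC1 KO libraries, 49130355 and 50238095 in the UQCRFS1 KO libraries and 43846845 and 37877638 in A673. The 10 most abundant genes took 10.2% and 10.1% of the counts in CYC1 KO, 14.4% and 14.6% in UQCRFS1 KO and 11.2% and 10.9% in A673. The noncoding RNAs RPPH1, RMRP and 7SK with 2 genes that carry no symbol held 7.73% and 7.87% of the counts in CYC1 KO, against 12.3% and 12.6% in UQCRFS1 KO. The part of this composition difference in the results below was not tested. All 10 Ewing sarcoma markers, such as NR0B1, NKX2-2 and CD99, were at 1 CPM (counts scaled to the library total) or more in every library, with summed levels of 4087 to 4116 CPM in CYC1 KO, 2832 to 3010 CPM in UQCRFS1 KO and 3362 to 3632 CPM in A673. A single marker, CCND1, made up most of the sum in CYC1 KO, and its levels are given below. Between the clones, 5 of the 10 were higher in CYC1 KO and 3 lower at an edgeR adjusted p under 0.05, beside 25.0% and 21.2% of all genes. The 8 epithelial markers with a row summed to at most 0.921 CPM in any of these 6 libraries, the 8 of blood cells to at most 3.51 CPM and the 6 of endothelium to at most 2.25 CPM. The 9 fibroblast markers were expressed, with summed levels of 838 and 873.7 CPM in CYC1 KO, 951.5 and 1051 CPM in UQCRFS1 KO and 807.9 and 976.2 CPM in A673, and 6 or 7 of the 9 were at 1 CPM or more in each library. Their part in the results below was not tested. In blood cells this sum was 3.11 and 3.51 CPM in CYC1 KO, against 1.05 and 1.14 CPM in UQCRFS1 KO, and ITGAM was the only member at 1 CPM or more.

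With DMSO the clones differed at a large share of their genes. Of 21633 genes tested, 9985 (46.2%) were called at an adjusted p under 0.05 by the edgeR quasi-likelihood F-test with Benjamini-Hochberg adjustment. Of all genes tested, 25.0% were called higher in CYC1 KO than in UQCRFS1 KO and 21.2% lower. At least 2-fold differences were called at 3054 genes (14.1%), of which 1461 (6.75%) were higher and 1593 (7.36%) lower. Against the same A673 libraries, 8137 genes (37.6%) were called in CYC1 KO and 6658 (30.8%) in UQCRFS1 KO, of which 2219 (10.3% of all genes) and 1124 (5.2%) differed at least 2-fold. With upper-quartile scaling the calls split into 4376 higher and 5645 lower, against 5409 higher and 4576 lower with TMM scaling, so which direction had more calls turned with the scaling.

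The edited genes followed their labels. CYC1 had 71.1 and 74.4 CPM in CYC1 KO, 268 and 307 CPM in UQCRFS1 KO and 290.4 and 280.4 CPM in A673. It was 3.96-fold lower in CYC1 KO than in UQCRFS1 KO, a log2 fold change of -1.98 ± 0.07 (SE; edgeR adjusted p = 1.29e-16). The 2 CYC1 KO libraries stood apart from all 4 others, and reads from the gene remained in them. CYC1 lies in the last of 10 bins of the gene order of chromosome 8, where the median gene had a log2 fold change of -0.46 between the clones. UQCRFS1 had 103 and 100.2 CPM in CYC1 KO, 58.6 and 60.9 CPM in UQCRFS1 KO and 102 and 98.6 CPM in A673. Its clone difference was 0.77 ± 0.06 on the log2 scale (SE; edgeR adjusted p = 2.71e-10), with UQCRFS1 KO below every other library. The gene lies on chromosome 19, where the median gene of UQCRFS1 KO was 0.42 above A673 on the log2 scale.

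Of the 14 complex III subunit and assembly genes other than the edited pair, 4 were higher (28.6%) and 1 lower (7.1%) in CYC1 KO, beside 25.0% and 21.2% of all genes, and their median log2 fold change was 0.04. With upper-quartile scaling 2 were higher and 3 lower. Without UQCRFS1 KO replicate 1, 2 were higher, and without CYC1 KO replicate 1, 0 were lower. LYRM7, the chaperone that holds the Rieske protein before insertion, had 104 and 103 CPM in CYC1 KO, against 64.1 and 61.5 CPM in UQCRFS1 KO. A673 had 95.2 and 88.4 CPM, so the lower level was that of the UQCRFS1 clone. The gene lies on chromosome 5. There the median gene of UQCRFS1 KO was -0.33 from A673 on the log2 scale and that of CYC1 KO -0.21. In bin 6 of its gene order, which holds LYRM7, these medians were -0.23 and -0.24. The median between the clones in that bin was 0.01. LYRM7 differed by 0.73 ± 0.07 on the log2 scale (SE; edgeR adjusted p = 4.69e-09). BCS1L, which translocates the Rieske protein, differed by 0.22 ± 0.07 on the same scale (edgeR adjusted p = 0.0124), and its libraries did not overlap. TTC19, which clears Rieske fragments from the complex, was 0.25 ± 0.06 higher in CYC1 KO and the hinge protein gene UQCRH 0.22 ± 0.07 higher. UQCRH lies in bin 4 of the gene order of chromosome 1, where the median gene was 0.41 higher in CYC1 KO. The difference of UQCRH was thus below that of its bin. TTC19 lies in bin 3 of chromosome 17, where the median between the clones was -0.11. The assembly factor UQCC2 was lower, at 47.7 and 50.2 CPM in CYC1 KO, against 58.0 and 55.8 CPM in UQCRFS1 KO. Of these calls, 3 were lost when 1 library was left out. BCS1L lost its call by edgeR without CYC1 KO replicate 2 (adjusted p = 0.168) or UQCRFS1 KO replicate 1 (0.276), UQCC2 without CYC1 KO replicate 1 (0.114) or UQCRFS1 KO replicate 1 (0.0618), and UQCRH without CYC1 KO replicate 1 (0.145) or either UQCRFS1 KO library (0.0686 and 0.0644).

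The core proteins UQCRC1 (log2 fold change -0.13) and UQCRC2 (0.08), the subunits UQCRB (0.02), UQCR10 (-0.10) and UQCR11 (-0.30), and the assembly factors UQCC1 (-0.03) and UQCC3 (0.06) were not called. UQCRQ, the subunit next to cytochrome b, was at 67.3 and 83.9 CPM in CYC1 KO, against 87.2 and 114 CPM in UQCRFS1 KO. Its difference of -0.42 was not called (edgeR adjusted p = 0.277), and with the replicate number as a block it was (adjusted p = 1.01e-05). In UQCRQ and UQCR11 replicate 1 was below replicate 2 in each clone.

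**Figure D1:**
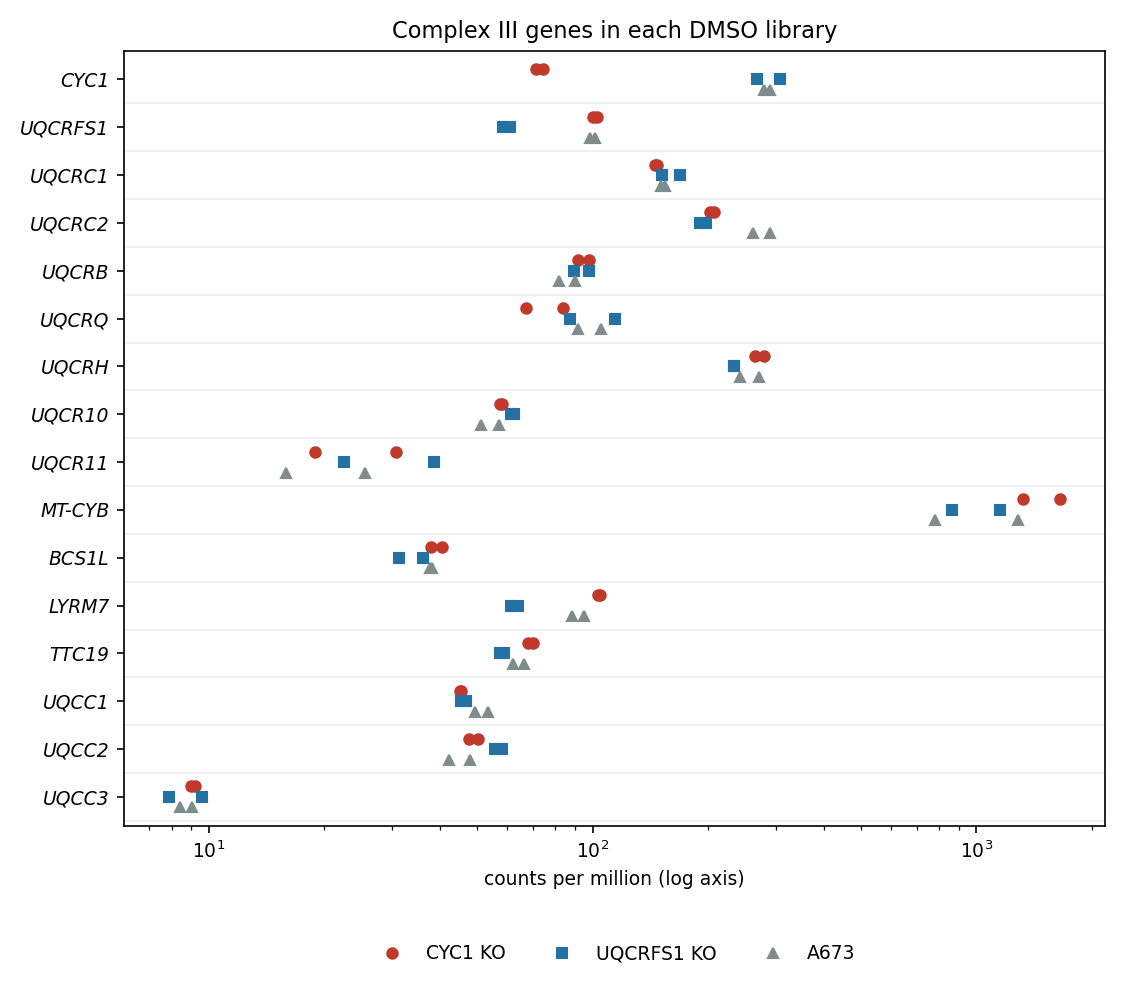
CPM (log axis) of the 16 complex III genes, with 1 symbol for each library of CYC1 KO (circles), UQCRFS1 KO (squares) and A673 (triangles), all with DMSO. CYC1 lies at 71.1 to 74.4 CPM in CYC1 KO and UQCRFS1 at 58.6 to 60.9 CPM in UQCRFS1 KO, while most other members of the clones lie close together.

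Most transcripts of mitochondrial DNA did not pass the test, although their median was higher in CYC1 KO. Of the 13 protein-coding genes of mitochondrial DNA, 1 was called higher and 0 called lower, beside 25.0% and 21.2% of all genes, with a median log2 fold change of 0.56. MT-ND4, a complex I subunit, had 2334 and 1967 CPM in CYC1 KO, against 1285 and 999 CPM in UQCRFS1 KO and 1515 and 996 CPM in A673. Its libraries did not overlap between the clones, and the log2 difference was 0.91 ± 0.30 (SE; edgeR adjusted p = 0.0378). MT-CYB, the cytochrome b of complex III, had 1654 and 1325 CPM in CYC1 KO, against 1150 and 864 CPM in UQCRFS1 KO, and was not called (adjusted p = 0.17). Replicate 1 exceeded replicate 2 for every one of the 13 genes in CYC1 KO and in UQCRFS1 KO. With a replicate block, 3 of the 13 were called higher, with DESeq2 4, and with upper-quartile scaling 0. Leaving out any 1 of the 4 libraries left 0 called, with edgeR adjusted p for MT-ND4 of 0.0676 to 0.189. The mitochondrial chromosome took 2.37% and 1.85% of the counts in CYC1 KO, against 1.75% and 1.33% in UQCRFS1 KO.

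Of 50 nuclear complex I subunit and assembly genes, 19 were lower (38%) and 12 higher (24.0%), beside 21.2% and 25.0% of all genes. Of 42 nuclear genes of complexes II, IV and V, 14 were lower (33.3%) and 5 higher (11.9%). Their medians were 0.01 and -0.07, or -0.08 and -0.14 after the median of each gene's own chromosome was subtracted. NDUFB1, a small membrane subunit of complex I, had 25.8 and 24.1 CPM in CYC1 KO, against 41.5 and 44.8 CPM in UQCRFS1 KO (log2 fold change -0.79). SURF1, an assembly factor of cytochrome oxidase, had 22.4 and 22.9 CPM in CYC1 KO, against 37.7 and 42.9 CPM in UQCRFS1 KO (-0.83). In the opposite direction, SDHD, a membrane anchor of complex II, was 0.58 higher. The median clone difference was 0.26 on chromosome 11, which holds SDHD. It was -0.37 on chromosome 14, which holds NDUFB1, and -0.04 on chromosome 9, which holds SURF1. Of 75 mitochondrial ribosomal protein genes, 24 were higher and 14 lower (17 and 20 with upper-quartile scaling), with a median of 0.03.

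Enzymes that feed electrons to coenzyme Q differed gene by gene. Of 9 tested, 4 were higher (44.4%) and 2 lower (22.2%), beside 25.0% and 21.2% of all genes. PRODH, proline dehydrogenase, had 0.821 and 0.968 CPM in CYC1 KO, against 6.20 and 6.63 CPM in UQCRFS1 KO and 3.48 and 3.07 CPM in A673. GPD2, mitochondrial glycerol-3-phosphate dehydrogenase, was 0.51 ± 0.06 higher on the log2 scale in CYC1 KO (edgeR adjusted p = 9.47e-08). SQRDL, which oxidizes sulfide, was 0.73 ± 0.20 higher (edgeR adjusted p = 0.0036, and 0.0787 without UQCRFS1 KO replicate 1). DHODH, the pyrimidine enzyme that needs coenzyme Q, had 13.03 and 13.8 CPM in CYC1 KO, against 12.4 and 12.1 CPM in UQCRFS1 KO, and was not called (adjusted p = 0.214). Of 14 pyrimidine genes, 5 were higher (35.7%) and 0 lower, beside the same 25.0% and 21.2% of all genes. CMPK1 was the most by p with a log2 fold change of 0.62, and upper-quartile scaling gave 5 higher and 5 lower. Without UQCRFS1 KO replicate 1 the list had 1 lower call. Of 13 coenzyme Q synthesis genes, 3 were higher (23.1%) and 6 lower (46.2%), and the 1 with the smallest p was COQ8B, 0.59 lower. Without CYC1 KO replicate 2 the list had 1 lower call, and with DESeq2 3.

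The largest differences between the clones reached 247-fold upward and 155-fold downward. The 15 genes with the largest differences in each direction, taken among called genes that reach 5 CPM in the higher clone and whose libraries do not overlap, spanned log2 fold changes of 5.24 to 7.95 upward and 4.06 to 7.27 downward. Of the 15 higher ones, 14 were called higher in CYC1 KO than in A673 and 9 lower in UQCRFS1 KO than in A673, beside 21.4% and 15% of all genes. Of the 15 lower ones, 15 were called lower in CYC1 KO than in A673 and 11 higher in UQCRFS1 KO than in A673, beside 16.2% and 15.8% of all genes. These 2 comparisons share the A673 libraries. They also reuse the CYC1 KO and UQCRFS1 KO libraries by which the genes were picked. A surplus over the share of all genes therefore follows from the choice and is description only.

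EPAS1, which encodes the hypoxia-inducible factor HIF-2α, had 46.9 and 49.0 CPM in CYC1 KO, 0.257 and 0.461 CPM in UQCRFS1 KO and 0.844 and 0.947 CPM in A673. It was 133-fold higher in CYC1 KO than in UQCRFS1 KO (log2 fold change 7.05 ± 0.11; edgeR adjusted p = 4.68e-23). DMRTA2, a transcription factor of neural progenitors, summed to 729 counts over both CYC1 KO libraries and to 3 over both UQCRFS1 KO libraries. The ratio of its CPM was 269, with a 95% exact binomial interval of 91.8 to 1310 that covers counting error only. DMRTA2 was the only gene with a symbol that had 3 counts or fewer in one clone and 5 CPM or more in the other. RGS1, a regulator of G protein signalling, LRRC32, a cell-surface docking protein for latent TGF-β, TGFA, a ligand of the EGF receptor, and PRPH, the neuronal filament protein peripherin, had log2 fold changes between 6.11 and 6.80 and means between 5.05 and 10.3 CPM in CYC1 KO. L1CAM, a neural adhesion molecule, had 32.1 and 33.5 CPM in CYC1 KO, against 0.829 and 0.781 CPM in UQCRFS1 KO and 1.88 and 1.996 CPM in A673. In all of these the CYC1 clone stood above A673.

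For other genes UQCRFS1 KO stood below A673 and CYC1 KO nearer to it. SLC38A5, a glutamine and serine transporter, had 32.3 and 29.7 CPM in CYC1 KO, 0.434 and 0.421 CPM in UQCRFS1 KO and 35.4 and 37.2 CPM in A673. PDE10A, a cyclic nucleotide phosphodiesterase, had 45.1 and 42.4 CPM in CYC1 KO, 0.849 and 0.601 CPM in UQCRFS1 KO and 23.8 and 19.6 CPM in A673. EPB41L3, a membrane skeleton protein, had 5.51 and 4.75 CPM in CYC1 KO, against 0.118 and 0.0801 CPM in UQCRFS1 KO and 3.77 and 4.04 CPM in A673. MMP1, the interstitial collagenase, moved in both clones, with 862 and 832 CPM in CYC1 KO, 13.1 and 15.7 CPM in UQCRFS1 KO and 273 CPM in each A673 library. It was 58.8-fold higher in CYC1 KO than in UQCRFS1 KO (log2 fold change 5.88 ± 0.14; edgeR adjusted p = 1.67e-12). The linker histone gene HIST1H1A, the pseudogene RPL7AP66 and MBD3L3, a member of a multicopy family, were also among the 15, and the last 2 are uncertain because near-identical copies can share reads.

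Among the genes lower in CYC1 KO, PDPN, the mucin-like protein podoplanin, had 0.0864 and 0.0675 CPM in CYC1 KO, 12.3 and 12.4 CPM in UQCRFS1 KO and 0.866 and 0.972 CPM in A673. ABCG1, a cholesterol efflux pump, had 0.0216 and 0.0900 CPM in CYC1 KO, 5.19 and 6.05 CPM in UQCRFS1 KO and 0.455 and 0.845 CPM in A673. Both stood above A673 in the UQCRFS1 clone and below it in the CYC1 clone. PTGFRN, a partner of tetraspanins, had 1.15 and 1.08 CPM in CYC1 KO, 76.0 and 78.7 CPM in UQCRFS1 KO and 20.9 and 26.6 CPM in A673, a 69.3-fold difference between the clones (log2 fold change -6.12 ± 0.11; edgeR adjusted p = 6.3e-22). KIF1A, a kinesin of axonal transport, had 22.5 and 23.02 CPM in CYC1 KO, against 358 and 399.8 CPM in UQCRFS1 KO and 164 and 190.4 CPM in A673. Its libraries kept the order CYC1 KO, A673, UQCRFS1 KO from low to high. ARRDC4, an arrestin-related regulator of glucose uptake, had 0.799 and 0.833 CPM in CYC1 KO, 19.2 and 18.1 CPM in UQCRFS1 KO and 18.2 and 18.0 CPM in A673. The endocytic adaptor STON2 had the same form, low in CYC1 KO and near A673 in UQCRFS1 KO. Others were CCDC152, DZIP1, EYA4, SLC16A10, PPM1E, PPP1R1B, SESN3 and CBLN2, with means between 5.79 and 12.5 CPM in UQCRFS1 KO. Whether counting used strand is not given in the sources used here. Exons of CCDC152 overlap SELENOP, those of DZIP1 overlap CLDN10, those of PPM1E overlap TRIM37 and those of MMP1 overlap WTAPP1, each on the opposite strand, so reads of these pairs may not be told apart. The same holds for exons of L1CAM, which overlap U52112.1 on the same strand and LCA10 on the opposite one, and for those of PDE10A, PRPH, LRRC32, EYA4, SLC16A10 and SESN3, which overlap other annotated genes on the opposite strand.

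**Figure D2:**
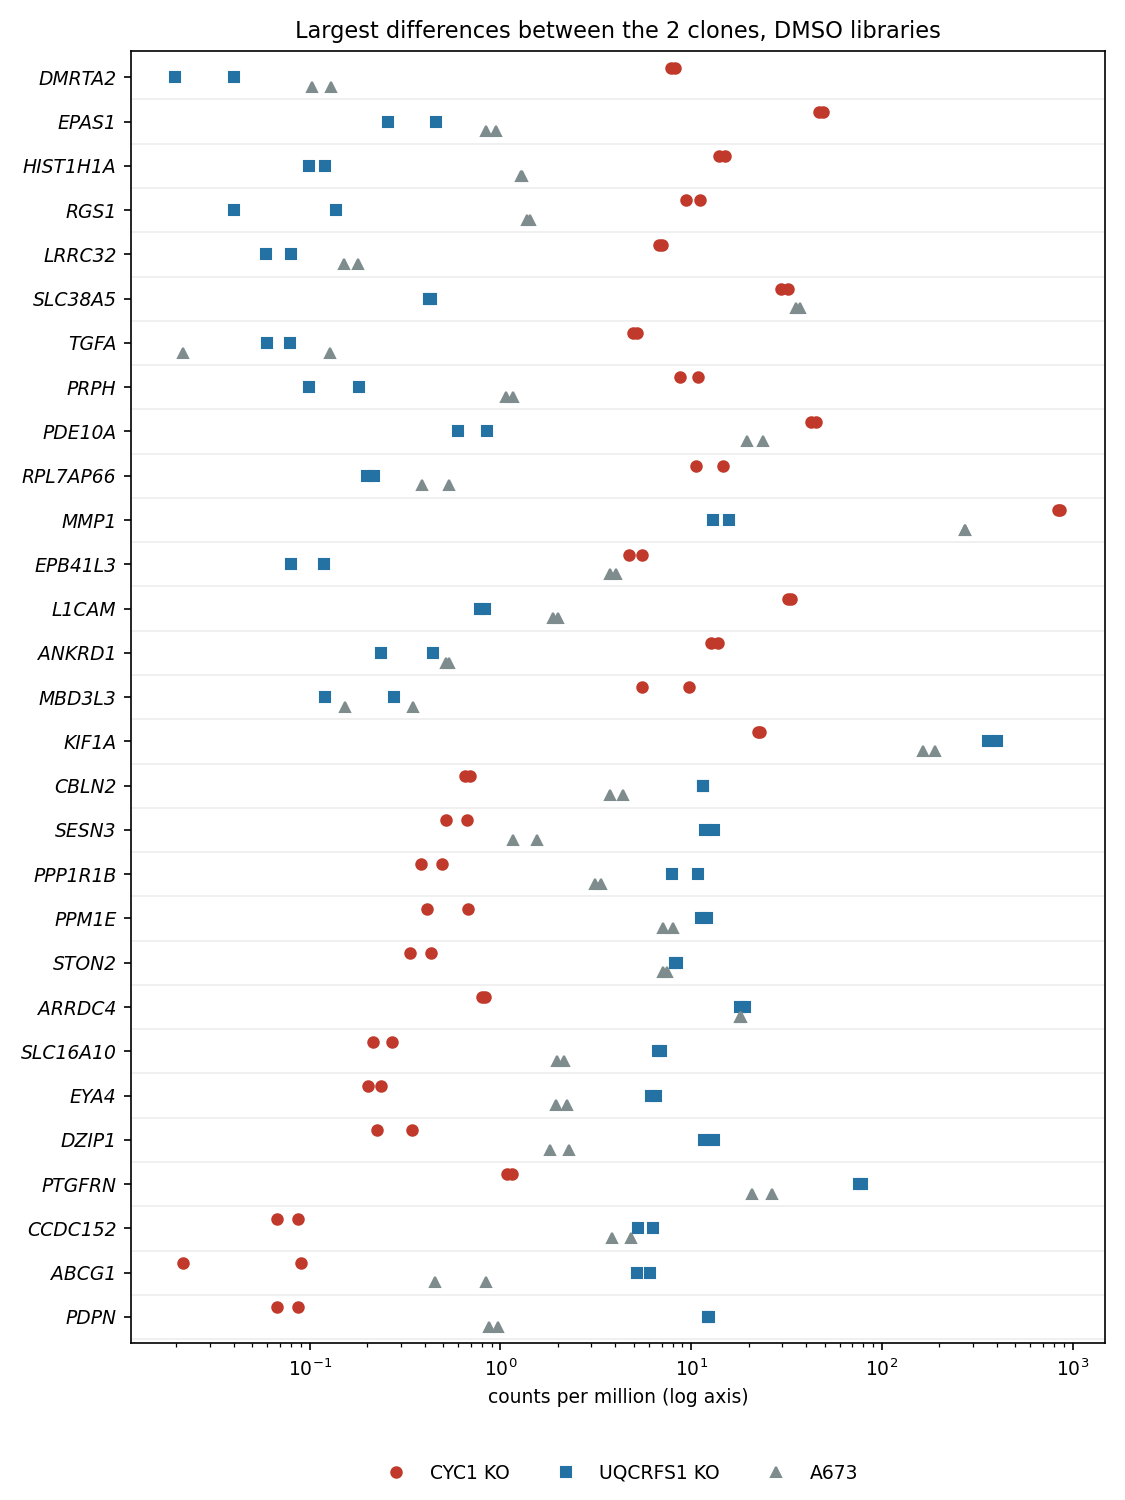
CPM (log axis) of 29 of the 30 genes with the largest differences between the clones, with 1 symbol for each DMSO library of CYC1 KO (circles), UQCRFS1 KO (squares) and A673 (triangles). EPAS1 is at 46.9 to 49.0 CPM in CYC1 KO and below A673 in UQCRFS1 KO, SLC38A5 is just below A673 in CYC1 KO and at 0.421 to 0.434 CPM in UQCRFS1 KO, and A673 often lies between the clones.

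Targets of YAP and TAZ, the coactivators that bind TEAD factors and respond to cell shape and matrix stiffness, were higher in CYC1 KO. Of 20 list members tested, 16 were higher and 1 lower, beside 25.0% and 21.2% of all genes, and the median log2 fold change was 0.99, against 0.00 for all genes. CTGF, a matricellular protein, had 161 and 148 CPM in CYC1 KO, against 14.5 and 16.8 CPM in UQCRFS1 KO and 19.7 and 20.3 CPM in A673. It was 9.85-fold higher (log2 fold change 3.30 ± 0.09; edgeR adjusted p = 1.25e-17). ANKRD1, a nuclear and sarcomeric ankyrin repeat protein, had 13.8 and 12.7 CPM in CYC1 KO, against 0.237 and 0.441 CPM in UQCRFS1 KO and 0.520 and 0.537 CPM in A673. CYR61, the matricellular relative of CTGF, had 207 and 171 CPM in CYC1 KO, against 27.4 and 23.4 CPM in UQCRFS1 KO. In these 3 genes both CYC1 KO libraries were above all other DMSO libraries of the clones and of A673. The ectonucleotidase NT5E (log2 fold change 2.39), the kinase AXL (1.98), tissue factor F3 (1.63), YAP1 itself (0.69) and TEAD1 (0.60) were also higher, and WWC1, which activates the Hippo kinases that restrain YAP, was lower (-0.39), a call that was lost without UQCRFS1 KO replicate 2 (edgeR adjusted p = 0.0895).

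The promoters of the pair with the largest differences on this list are given because both hold the core letters of the TEAD site. The 250 bases before the start of each gene are from RefSeq on GRCh38.p14, on the minus strand, at chr6:131951373-131951622 for CTGF (there named CCN2) and at chr10:90921088-90921337 for ANKRD1. Capitals mark CATTCC or its reverse complement, searched on both strands.
CTGF: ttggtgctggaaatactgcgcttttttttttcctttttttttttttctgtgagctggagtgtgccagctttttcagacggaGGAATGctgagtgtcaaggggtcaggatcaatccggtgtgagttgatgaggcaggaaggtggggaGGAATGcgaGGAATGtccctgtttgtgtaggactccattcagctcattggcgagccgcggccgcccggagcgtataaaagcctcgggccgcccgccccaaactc
ANKRD1: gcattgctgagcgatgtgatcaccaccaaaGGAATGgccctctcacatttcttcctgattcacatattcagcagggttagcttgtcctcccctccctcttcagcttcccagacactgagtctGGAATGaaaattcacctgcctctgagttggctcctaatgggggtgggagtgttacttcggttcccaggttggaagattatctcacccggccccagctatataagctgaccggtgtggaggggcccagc
CTGF held 3 matches and ANKRD1 2. Of the 20 list members, 15 matched the promoter table and 5 of those (33.3%) held the letters, against 11.9% of all 27305 promoters. The match is of letters only, and binding was not measured.

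Immediate early genes, which growth factor signalling switches on within minutes, moved with them. Of 22 tested, 16 were higher and 2 lower in CYC1 KO, beside 25.0% and 21.2% of all genes, and the median log2 fold change was 0.82. FOS, a subunit of the AP-1 transcription factor, had 69.7 and 61.3 CPM in CYC1 KO, against 11.8 and 9.09 CPM in UQCRFS1 KO and 25.7 and 21.2 CPM in A673. FOSB, another AP-1 subunit, had 21.5 and 28.5 CPM in CYC1 KO, against 1.28 and 1.06 CPM in UQCRFS1 KO and 4.29 and 3.28 CPM in A673. For both genes the CYC1 clone was above A673 and the UQCRFS1 clone below it. JUN differed by 1.87 ± 0.08 on the log2 scale and the ERK phosphatase DUSP6 by 0.82 ± 0.05 (SE), both higher in CYC1 KO. JUND (-0.68) and DUSP4 (-0.70) were lower, and MYC (0.05) and JUNB (0.03) were not called. EGR1, an immediate early zinc finger factor, had 102 and 84.8 CPM in CYC1 KO, 56.7 and 45.3 CPM in UQCRFS1 KO and 217 and 199 CPM in A673, so both clones were below the parental line. The letters TGANTCA, which AP-1 binds, were in 0 of the 16 promoters of this list that matched, against 6.6% of all promoters.

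Genes of antigen presentation by MHC class I, the pathway that loads cytosolic peptides for display to T cells, were higher in CYC1 KO at 13 of 18 members tested and lower at 1, or at 2 without UQCRFS1 KO replicate 1. Their median log2 fold change was 0.79, and of all genes 25.0% were higher and 21.2% lower. PSMB9, a subunit of the immunoproteasome, had 76 counts over both CYC1 KO libraries and 0 over both UQCRFS1 KO libraries. Against a floor of 3 counts over the group it was at least 28.1-fold higher in CYC1 KO. PSMB8, another immunoproteasome subunit, had 5.25 and 4.73 CPM in CYC1 KO, against 0.296 and 0.401 CPM in UQCRFS1 KO and 1.47 and 2.10 CPM in A673. TAP1 (log2 fold change 2.11) and TAP2 (1.84), which pump peptides into the endoplasmic reticulum, the trimming enzymes ERAP1 (1.33) and ERAP2 (1.61), and NLRC5 (2.04), which activates class I genes, were higher too. All 6 of these genes and PSMB9 were called above A673 in CYC1 KO and below A673 in UQCRFS1 KO, by comparisons that share the A673 libraries. HLA-C (0.57) and HLA-E (0.73) were higher, and B2M (0.09) was not called. HLA genes are close in sequence and polymorphic, so their counts are uncertain.

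Interferon response genes, induced by viral RNA and DNA sensors, were higher at 20 of 34 members and lower at 5, with a median log2 fold change of 0.64. Here and for the inflammatory genes below, the shares over all genes were 25.0% higher and 21.2% lower. IFIH1, a sensor of double-stranded RNA, had 10.3 and 10.6 CPM in CYC1 KO, against 3.69 and 3.37 CPM in UQCRFS1 KO and 4.005 and 3.86 CPM in A673. TMEM173, which encodes STING, had 54.6 and 53.5 CPM in CYC1 KO, against 21.9 and 24.5 CPM in UQCRFS1 KO. IRF7 (-0.69) and ISG15 (-0.46) were lower. ISG15 lost its call when UQCRFS1 KO replicate 2 was left out (edgeR adjusted p = 0.0743), and the list had 2 or 3 lower calls without any 1 of the 4 libraries. Of 18 inflammatory genes, 11 were higher and 3 lower, with a median of 0.98. The chemokine gene CCL2 had 191 counts over the CYC1 KO libraries and 3 over the UQCRFS1 KO libraries, a CPM ratio of 70.6 (95% exact binomial interval 23.8 to 345), and 2.38 and 1.95 CPM in A673.

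Enzymes of serine, one-carbon, asparagine and proline synthesis, which ATF4 controls when amino acids run short or mitochondria fail, were lower in CYC1 KO. Of 22 tested, 17 were lower and 1 higher, beside 21.2% and 25.0% of all genes, and the median log2 fold change was -0.58. Without CYC1 KO replicate 1, 2 were higher. Against A673 the medians were -0.56 in CYC1 KO and -0.15 in UQCRFS1 KO. ASNS, asparagine synthetase, had 75.2 and 73.5 CPM in CYC1 KO, 192 and 198 CPM in UQCRFS1 KO and 255 and 246 CPM in A673. It was 2.62-fold lower in CYC1 KO than in UQCRFS1 KO (log2 fold change -1.39 ± 0.06; edgeR adjusted p = 5.4e-15). PCK2, the mitochondrial phosphoenolpyruvate carboxykinase, had 4.23 and 4.19 CPM in CYC1 KO, 15.4 and 17.2 CPM in UQCRFS1 KO and 20.2 and 24.1 CPM in A673. PSAT1, of serine synthesis, had 228 and 231 CPM in CYC1 KO, 443 and 446 CPM in UQCRFS1 KO and 558 and 528 CPM in A673. In all 3 genes the order of the lines from low to high was CYC1 KO, UQCRFS1 KO, A673. PYCR1, of proline synthesis, was lower by a log2 fold change of -1.28, and PHGDH, the entry to serine synthesis, by -0.38. ALDH1L2, the mitochondrial formyltetrahydrofolate dehydrogenase, was the 1 member that was higher, at 13.1 and 11.9 CPM in CYC1 KO, 7.80 and 6.69 CPM in UQCRFS1 KO and 4.76 and 4.66 CPM in A673. MTHFD2 (-0.06), a mitochondrial folate enzyme, was not called.

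The promoter of ASNS is given because it carries the composite element that ATF4 binds with C/EBP factors, searched as TGATGNAA on both strands and set in capitals. It is the 250 bases before the start at chr7:97872409-97872658 on the minus strand of GRCh38.p14, from RefSeq, beside CHAC1 at chr15:40953221-40953470 on the plus strand, an enzyme that degrades glutathione in the same response.
ASNS: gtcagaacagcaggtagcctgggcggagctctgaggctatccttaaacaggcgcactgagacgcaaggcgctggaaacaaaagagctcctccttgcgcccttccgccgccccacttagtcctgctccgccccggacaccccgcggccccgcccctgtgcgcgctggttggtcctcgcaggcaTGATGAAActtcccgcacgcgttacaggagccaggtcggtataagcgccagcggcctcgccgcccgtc
CHAC1: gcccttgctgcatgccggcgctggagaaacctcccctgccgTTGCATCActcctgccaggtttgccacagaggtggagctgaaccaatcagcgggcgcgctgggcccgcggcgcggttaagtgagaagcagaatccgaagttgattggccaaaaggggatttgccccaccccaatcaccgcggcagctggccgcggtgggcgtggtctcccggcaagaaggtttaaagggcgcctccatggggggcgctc
Of 22 members, 14 matched the promoter table and 2 held the letters (14.3%), and of 27 integrated stress response genes 25 matched and 4 held them, against 3.2% of all promoters.

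The integrated stress response itself was mixed. Of 26 of its regulators and effectors tested, 12 were lower (46.2%) and 7 higher (26.9%), beside 21.2% and 25.0% of all genes. Their median log2 fold change was -0.22. ATF5, a transcription factor of the response, had 44.5 and 49.7 CPM in CYC1 KO, against 144 and 171 CPM in UQCRFS1 KO and 172 and 190.4 CPM in A673. CHAC1 had 4.36 and 4.37 CPM in CYC1 KO, against 9.99 and 10.5 CPM in UQCRFS1 KO and 13.4 and 14.97 CPM in A673. The pseudokinase gene TRIB3 was 2.00-fold lower (log2 fold change -0.998) and DDIT3, which encodes CHOP, 0.65 lower on the log2 scale. PPP1R15A, the phosphatase subunit that ends the response, was 0.67 higher, and OMA1, the mitochondrial protease that starts it from the inner membrane, 0.64 higher. Cytosolic tRNA synthetases split evenly, with 7 higher and 7 lower of 20. Of 23 amino acid transporters, 11 were higher and 3 lower, with a median of 0.18.

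Cholesterol synthesis and uptake genes, targets of SREBP2, were lower at 18 of 28 members and higher at 3, beside 21.2% and 25.0% of all genes. Their median log2 fold change was -0.27. TM7SF2, a sterol reductase, had 3.33 and 4.21 CPM in CYC1 KO, against 13.3 and 16.8 CPM in UQCRFS1 KO and 12.4 and 14.1 CPM in A673. UQCRFS1 KO was close to A673 for this gene and CYC1 KO below both. INSIG1, which retains SREBPs in the endoplasmic reticulum, was lower by a log2 fold change of -0.97. DHCR7 (0.48), SC5D (0.45) and PMVK (0.27) were the 3 that were higher, PMVK lost its call without any 1 of 3 libraries (edgeR adjusted p = 0.0882 to 0.487), and the first 2 are on chromosome 11, where the median gene was 0.26 higher in CYC1 KO. The letters TCACNCCAC of the sterol regulatory element core were in 1 of 21 matched promoters (4.8%), against 0.9% of all.

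Glucose and oxygen genes were called in both directions, beside 25.0% higher and 21.2% lower over all genes. Of 32 genes of glycolysis and glucose uptake, 10 were higher and 8 lower (8 and 10 with upper-quartile scaling), and of 24 hypoxia targets and regulators 7 were higher and 7 lower. ENO2, the neuronal enolase, had 15.2 and 14.7 CPM in CYC1 KO, against 123 and 140.0 CPM in UQCRFS1 KO and 78.6 and 87.1 CPM in A673. SLC16A3, the lactate exporter MCT4, had 15.2 and 16.9 CPM in CYC1 KO, against 2.63 and 2.72 CPM in UQCRFS1 KO and 1.82 and 2.81 CPM in A673. Beside EPAS1, the HIF targets NDRG1 (log2 fold change 3.31) and ADM (1.85) were higher, while VEGFA (-0.92) and HIF1A (-0.41) were lower. NRF2 targets, of the oxidant response, were higher at 13 of 27 and lower at 5. NQO1, a quinone reductase, had 85.8 and 83.9 CPM in CYC1 KO, against 34.7 and 37.4 CPM in UQCRFS1 KO and 42.8 and 41.4 CPM in A673. FTL, the ferritin light chain on chromosome 19, was lower by a log2 fold change of -0.66.

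Over all genes, 25.0% were higher in CYC1 KO and 21.2% lower. Of 34 genes that EWSR1::FLI1 is known to repress, 27 were higher and 5 lower, with a median log2 fold change of 0.54. Of 38 that it activates, 19 were higher and 10 lower, with a median of 0.16. Several members are also YAP targets, CTGF and CYR61 among them. THBS1, a matrix glycoprotein, had 52.0 and 48.2 CPM in CYC1 KO, against 3.71 and 4.75 CPM in UQCRFS1 KO and 5.24 and 6.40 CPM in A673. DKK1, a Wnt inhibitor, was 3.41 higher on the log2 scale, and IGFBP5, an IGF binding protein, 2.38 lower. Among activated genes the cell cycle gene CCND1 had 2301 and 2294 CPM in CYC1 KO, against 1073 and 1130 CPM in UQCRFS1 KO, and the kinase PRKCB was 1.19 higher on the log2 scale. GLI1 (-1.23) and CCK (-1.21) were lower. EWSR1 had 321 and 336 CPM in CYC1 KO, against 262 and 272 CPM in UQCRFS1 KO, and FLI1 110.5 and 110.3 CPM in CYC1 KO, against 78.2 and 81.3 CPM in UQCRFS1 KO. Both were higher, by 0.30 ± 0.06 and 0.47 ± 0.06 on the log2 scale (SE; edgeR adjusted p = 0.00019 and 1.47e-07), and gene counts do not separate the fusion from its parent genes. FLI1 lies on chromosome 11, where the median gene was 0.26 higher in CYC1 KO. Medians of the 10 bins of that chromosome's gene order ranged from -0.17 to 0.60. KDM1A, the target of SP-2509, was lower in CYC1 KO, at 225 and 222 CPM, against 359.7 and 379 CPM in UQCRFS1 KO and 321 and 343 CPM in A673.

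Genes of the cell surface and matrix differed in both directions. Of 40 collagens, 13 were higher (32.5%) and 12 lower (30.0%), beside 25.0% and 21.2% of all genes, COL9A3 the largest by p with 65.2 and 63.8 CPM in CYC1 KO, against 9.16 and 10.2 CPM in UQCRFS1 KO. The 2 chains of type I collagen went apart, COL1A1 1.12 higher and COL1A2 0.85 lower on the log2 scale. Of 29 matrix proteases, cadherins and mesenchymal regulators, 15 were higher and 6 lower, with the transcription factor SNAI2 at 1.78 and N-cadherin, CDH2, at -1.21. Of the 9 fibroblast markers, 3 were higher and 5 lower with DMSO (3 lower without CYC1 KO replicate 2), with a median of -0.35. DCN and LUM, which bind collagen, were lower at -3.60 and -2.99, while POSTN was higher at 2.74. With SP-2509 the list had 5 higher and 1 lower, with a median of 0.59. IGF1R, the IGF receptor, had 30.3 and 28.7 CPM in CYC1 KO, against 67.5 and 69.5 CPM in UQCRFS1 KO and 70.4 and 77.3 CPM in A673.

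Of 33 HOX genes, which lie in clusters, 13 were lower and 6 higher, beside 21.2% and 25.0% of all genes. HOXB9 had 1.15 and 1.10 CPM in CYC1 KO, against 9.91 and 9.78 CPM in UQCRFS1 KO and 6.67 and 5.76 CPM in A673. Its neighbour HOXB8 was lower by a log2 fold change of -3.32. HOXC and HOXD genes were found on both sides, HOXC6 at 0.73 and HOXD11 at -0.69. Of 50 clustered protocadherins, neuronal adhesion molecules of chromosome 5, 18 were lower (36.0%) and 8 higher (16%). The 8 were 4 without CYC1 KO replicate 1, and 5 without CYC1 KO replicate 2, without UQCRFS1 KO replicate 1, with DESeq2 or with upper-quartile scaling. With SP-2509 the protocadherins had 6 lower and 20 higher, and the difference between the treatments was called at 17, all with a higher clone difference with SP-2509. Of 32 imprinted genes, 11 were lower (34.4%) and 8 higher (25.0%, the share over all genes). MEG3, the maternally expressed noncoding RNA of chromosome 14, had 8.12 and 7.09 CPM in CYC1 KO, against 17.5 and 15.4 CPM in UQCRFS1 KO and 9.98 and 8.24 CPM in A673.

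The remaining lists had calls in both directions, beside 25.0% higher and 21.2% lower over all genes. Of 26 p53 targets and growth arrest genes, 8 were higher and 10 lower (median log2 fold change -0.02), and of 36 genes of DNA replication and S-phase entry 11 were higher and 10 lower (0.05), or 6 and 12 with upper-quartile scaling. Of 22 genes of LSD1 and its complexes, 8 were higher and 7 lower, or 4 and 8 with upper-quartile scaling, and leaving out any 1 of the 4 libraries left 5 higher. Iron, heme and iron-sulfur cluster genes had 8 higher and 14 lower of 33 (-0.09), and aspartate, glutamine and malate metabolism had 3 higher and 5 lower of 24 (-0.07), or 3 and 11 with upper-quartile scaling. Mitophagy, autophagy and lysosome genes had 11 higher and 4 lower of 29 (0.08), with 7 higher without UQCRFS1 KO replicate 1. Mitochondrial chaperones and proteases had 5 higher and 3 lower of 16, and mitochondrial biogenesis genes 6 higher and 4 lower of 15, and with upper-quartile scaling these were 4 and 5, and 5 and 6. Of 16 IGF axis genes, 9 were higher and 5 lower (0.26), and of 6 cancer-testis antigens tested 1 was higher and 2 lower. Leaving out 1 library moved other counts here by over 1.5 times. The 11 higher replication genes were 6 without CYC1 KO replicate 2 and 7 without UQCRFS1 KO replicate 1, the 5 higher chaperones and proteases were 3 without CYC1 KO replicate 2, and the 4 lower biogenesis genes were 2 without CYC1 KO replicate 1. Without UQCRFS1 KO replicate 1 the lower calls were 9 in aspartate, glutamine and malate metabolism and 5 in chaperones and proteases. The higher cancer-testis antigen was not called without CYC1 KO replicate 1 or UQCRFS1 KO replicate 1.

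Differences were also arranged along chromosomes. Over 20787 tested genes placed on chromosomes 1 to 22 and X, 25.4% were higher and 21.5% lower in CYC1 KO, with a median of 0.00. On chromosome 19, 8.5% were higher and 43.1% lower, with a median log2 fold change of -0.32. Against A673 the chromosome 19 medians were 0.09 in CYC1 KO and 0.42 in UQCRFS1 KO, so UQCRFS1 KO was the clone farther from A673. In 10 equal bins of that chromosome's gene order, all UQCRFS1 KO medians lay between 0.34 and 0.49. On chromosome 14, 43.7% were lower and 10.6% higher, with medians against A673 of -0.33 in CYC1 KO and 0.03 in UQCRFS1 KO. The step came after bin 3 of 10, with CYC1 KO medians of -0.11, -0.08 and -0.08 before it and between -0.48 and -0.33 after it. Chromosome 13 had 42.3% lower, and bin 6 of 10 went the other way in CYC1 KO, with a median of 0.42 against A673. On chromosome 11, 42.2% were higher and 13.6% lower, with a median of 0.26, and the UQCRFS1 KO medians against A673 were 0.16 in bin 1, -0.43 in bin 9 and -0.39 in bin 10. On chromosome 5 both clones were below A673, with medians of -0.21 in CYC1 KO and -0.33 in UQCRFS1 KO. Chromosome 1 had medians between the clones of -0.34, -0.25 and -0.24 in bins 1 to 3 and of 0.41, 0.53 and 0.36 in bins 4 to 6. In bin 10 of chromosome 8, which holds CYC1, 71.1% of 76 genes were lower, the highest share of any bin, with medians against A673 of -0.25 in CYC1 KO and 0.18 in UQCRFS1 KO. DNA copy number was not measured here, and its part was not tested.

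**Figure D3:**
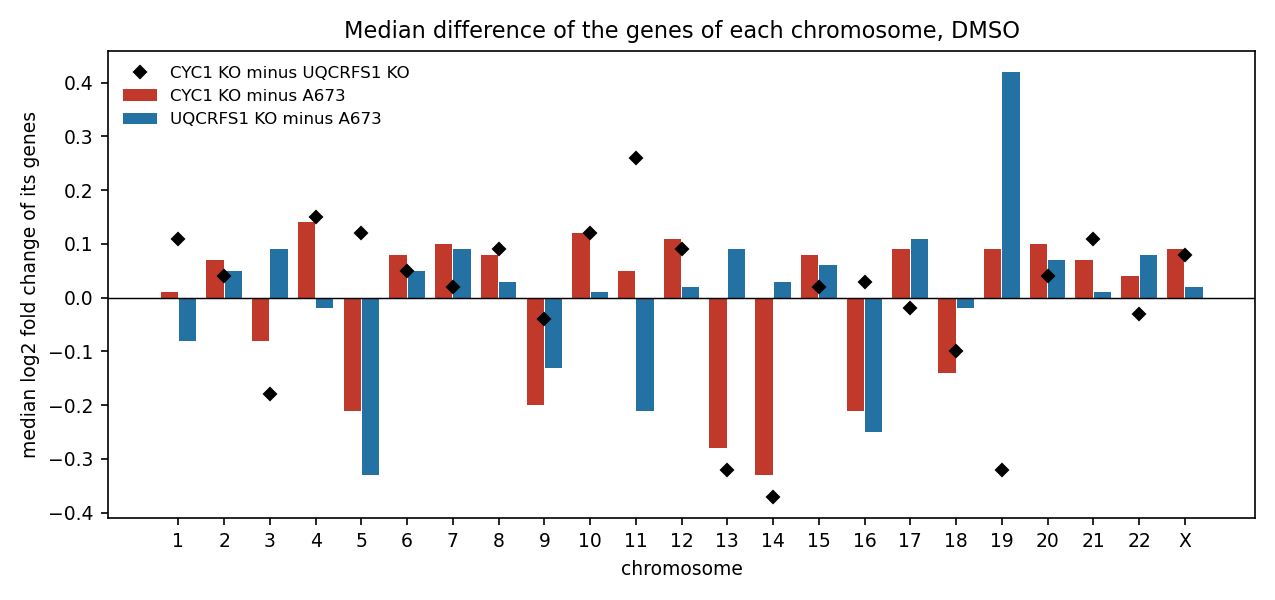
Median log2 fold change (y axis) of the tested genes of each chromosome (x axis) with DMSO. Bars give CYC1 KO and UQCRFS1 KO against A673 and diamonds CYC1 KO against UQCRFS1 KO. UQCRFS1 KO reaches 0.42 on chromosome 19, CYC1 KO -0.33 on chromosome 14 and -0.28 on chromosome 13.

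**Figure D4:**
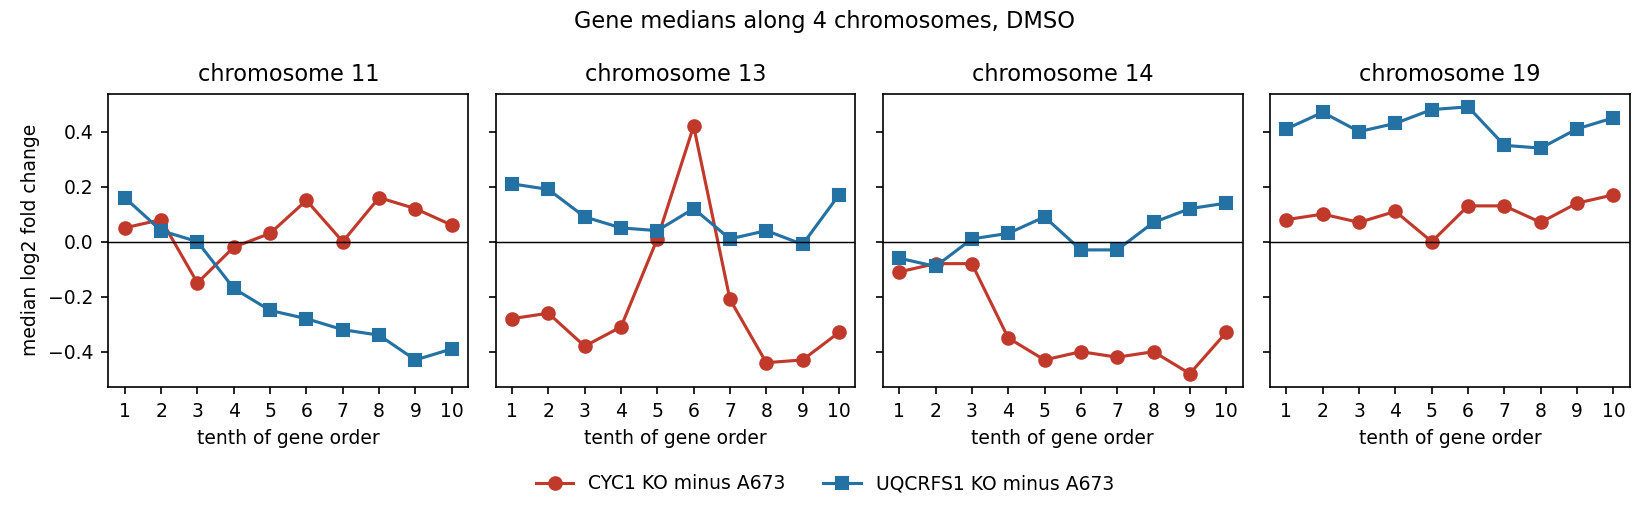
Median log2 fold change against A673 (y axis) in each of 10 bins of the gene order (x axis) of chromosomes 11, 13, 14 and 19, for CYC1 KO (circles) and UQCRFS1 KO (squares) with DMSO. UQCRFS1 KO falls away along chromosome 11 and lies above 0 throughout chromosome 19, and CYC1 KO steps down on chromosome 14 after bin 3.

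Zinc finger genes, many of them clustered on chromosome 19, encode repressors of repeats and genes. Of 485 tested with ZNF symbols, 193 were lower (39.8%) and 89 higher (18.4%) in CYC1 KO, beside 21.2% and 25.0% of all genes. The 240 on chromosome 19 had 142 lower (59.2%) and 18 higher, and the 245 elsewhere had 51 lower (20.8%) and 71 higher. Other genes of chromosome 19 had 39.8% lower, and their median of -0.33 was near the -0.31 of the zinc finger genes there. ZNF829, on chromosome 19, had 0.562 and 0.585 CPM in CYC1 KO, against 8.31 and 7.21 CPM in UQCRFS1 KO and 2.47 and 2.58 CPM in A673. ZNF736 had 1 count over both CYC1 KO libraries and 158 over both UQCRFS1 KO libraries, a CPM ratio of 143 with a 95% exact binomial interval of 25.2 to 5670. After the median of each gene's own chromosome was subtracted, list medians were 1.01 for YAP and TAZ targets, 0.82 for immediate early genes, 0.73 for MHC class I genes, -0.69 for serine and one-carbon synthesis and -0.35 for cholesterol synthesis.

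The clone contrast was repeated with SP-2509, in 4 libraries that are not among those above. There 10701 genes (49.5%) were called, 24.7% of all genes higher in CYC1 KO and 24.8% lower. Of the DMSO calls, 61.4% were called in the same direction with SP-2509, which is 57.3% of the SP-2509 calls, and 8.7% were called in the opposite direction. Of the 3054 DMSO calls of at least 2-fold, 2023 (66.2%) kept their direction and 97 were called in the opposite one. All 15 of the genes with the largest positive differences and all 15 with the largest negative ones were called in the same direction. EPAS1 had 72.7 and 74.5 CPM in CYC1 KO with SP-2509, against 4.90 and 5.00 CPM in UQCRFS1 KO with SP-2509. With SP-2509, CYC1 had 78.9 and 82.2 CPM in CYC1 KO, against 308 and 268 CPM in UQCRFS1 KO, and UQCRFS1 115 and 109 CPM in CYC1 KO, against 88.2 and 77.8 CPM in UQCRFS1 KO.

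The difference between the clone contrasts was itself tested, and 6268 genes (29%) passed, of all genes 12.4% with a higher clone difference with SP-2509 than with DMSO and 16.6% with a lower one. YAP and TAZ targets and immediate early genes were mostly called lower in this test. Of 20 YAP and TAZ targets, 16 had a lower clone difference with SP-2509 and 1 a higher one, and the median contrast was -0.12 with SP-2509, against 0.99 with DMSO. CTGF had 162 and 184 CPM in CYC1 KO with SP-2509, against 199 and 199 CPM in UQCRFS1 KO with SP-2509. Of 22 immediate early genes, 21 had a lower difference and 0 a higher one, with medians of -0.69 with SP-2509 and 0.82 with DMSO. FOS had 38.05 and 37.5 CPM in CYC1 KO with SP-2509, against 66.2 and 65.2 CPM in UQCRFS1 KO. In both genes the clone with the lower level in DMSO had the higher level with SP-2509.

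Genes of amino acid and cholesterol synthesis were called in the opposite direction. Of 22 serine and one-carbon genes, 15 had a higher clone difference with SP-2509 and 0 a lower one, with medians of 0.09 with SP-2509 and -0.58 with DMSO. ASNS had 186 and 167 CPM in CYC1 KO with SP-2509, against 62.5 and 56.5 CPM in UQCRFS1 KO, a log2 fold change of 1.57 ± 0.06 where it was -1.39 with DMSO. The difference of these contrasts was 2.96 ± 0.09 (SE; edgeR adjusted p = 9.36e-17). Of 28 cholesterol genes, 23 had a higher difference and 0 a lower one, with medians of 0.37 with SP-2509 and -0.27 with DMSO. MHC class I genes had 11 of 18 higher and 2 lower with SP-2509 and a median of 0.85. Of the 13 that were higher with DMSO, 10 were higher with SP-2509 too, 1 was lower and 2 were not called, and the clone difference was called higher with SP-2509 at 4 of the 18 and lower at 1. Interferon genes had 23 of 34 higher and 5 lower, with medians of 0.98 with SP-2509 and 0.64 with DMSO. Of the 20 that were higher with DMSO, 17 were higher with SP-2509, 1 was lower and 2 were not called. The clone difference was called higher with SP-2509 at 13 of the 34 and lower at 6, beside 12.4% and 16.6% of all genes. PSMB8 had 4.14 and 3.97 CPM in CYC1 KO with SP-2509, against 0.490 and 0.219 CPM in UQCRFS1 KO.

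**Figure D5:**
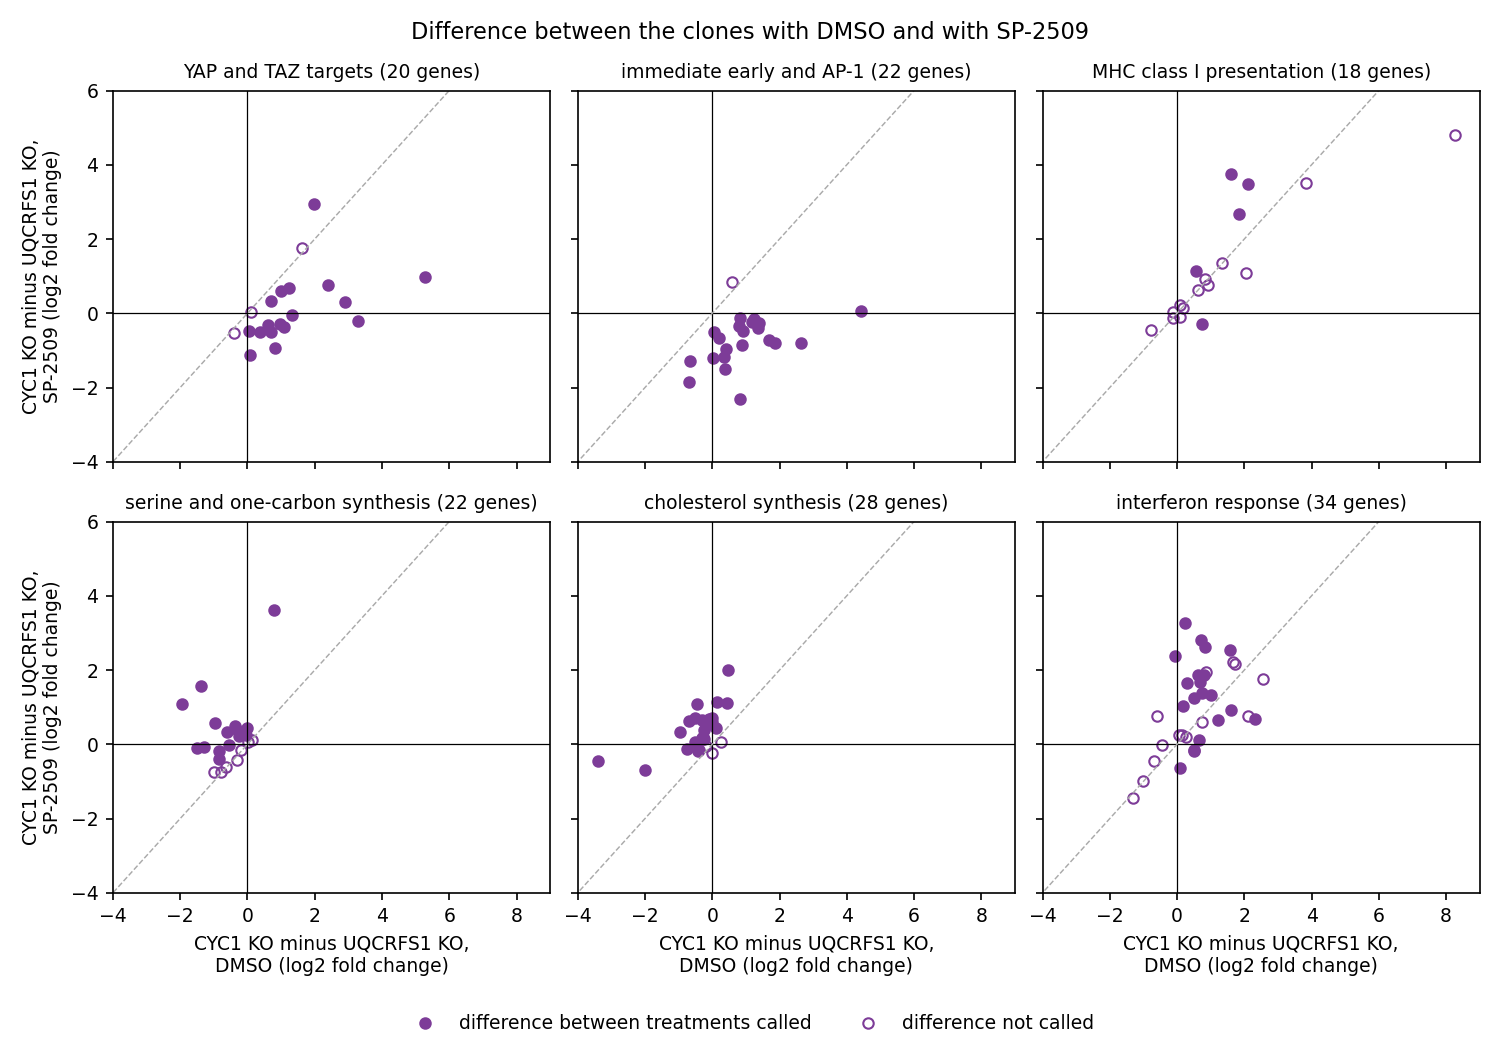
Log2 fold change of CYC1 KO against UQCRFS1 KO with DMSO (x axis) and with SP-2509 (y axis) for the tested members of 6 gene lists, 1 point a gene, filled where the difference between the treatments was called, with the dashed line at equality. YAP and TAZ targets and immediate early genes lie below the line, serine, one-carbon and cholesterol synthesis genes mostly above it, and most MHC class I genes near it.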

How the data were processed

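Raw counts per gene of all 16 libraries were deposited by the authors, per the file headers, in 10 tables of 39249 genes, and columns repeated between tables were identical. The submitters' processing notes name FastQC, MultiQC, Trim Galore, STAR 2.5.2b, DESeq2 and hg19. The sources used here give no counter, annotation or use of strand. The MRPL45 gene was not analysed here.

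Counts were fitted with edgeR 4.0.16 (R 4.3.3; TMM factors, filterByExpr with a minimum count of 10, robust quasi-likelihood F-test, Benjamini-Hochberg) in 1 fit of all 16 libraries with 8 groups, leaving 8 residual degrees of freedom. The groups were A673, MRPL45 KO, CYC1 KO and UQCRFS1 KO, each with DMSO or SP-2509. Filter and spread therefore rest on all of them. Calls are at an adjusted p under 0.05. CPM divides by the library's total count over the tested genes times its TMM factor. A log2 fold change is of CYC1 KO over UQCRFS1 KO unless another pair is named, and its SE is its size over the square root of F. On simulated counts of this comparison over 21213 genes, 92% of 50 genes changed 1.5-fold and 100% of 50 changed 2-fold were recovered. Only 200 genes were changed in all, each with a mean of 5 CPM or more, so recovery at lower levels was not tested. The simulated libraries were drawn independently, without a deviation shared by same-numbered libraries. Intervals of count ratios are exact binomial at 95% and cover counting error only.

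Same-numbered libraries deviated together. The correlation of their differences across 10597 genes was 0.596 between the DMSO clones and 0.125 to 0.651 over the 28 pairs of groups. The numbers were therefore taken to pair the libraries, from these data and not from a label. The main fit has no replicate term, so its p-values and SE leave this pairing out. Replicate number entered only in the replicate block, an alternative. No 2 libraries agreed within counting noise.

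Named genes are the edited genes, KDM1A, EWSR1 and FLI1, the 15 largest differences in each direction at 5 CPM or more with a symbol, up to 6 called members of each list in each direction by p, all members of lists of at most 16, genes with at most 3 counts in one clone and 5 CPM in the other, and up to 5 genes in each direction with opposite clone differences between treatments. Some genes that this rule names are not reported here. Other named genes were chosen after their values were seen. The members and gene lists were chosen with earlier results of these data known. Chromosome and gene order came from GENCODE 29 by Ensembl ID, and promoters from RefSeq on GRCh38.p14. Normalization, filter, tool, libraries fitted, replicate block and left-out libraries were varied.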

Additional observations from a re-analysis of the deposited data

Results flagged for a closer look

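In 854 genes the clone difference was called in opposite directions with SP-2509 and with DMSO, and the difference between the treatments was called too by edgeR. Of these, 570 were lower in CYC1 KO than in UQCRFS1 KO with SP-2509 and higher with DMSO, and 284 the reverse. The values below are the 5 largest in each direction, as the SP-2509 log2 fold change minus the DMSO one, and each was named for a difference between the treatments.

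ASS1, argininosuccinate synthase, had 6.24 and 4.89 CPM in CYC1 KO with SP-2509, against 0.449 and 0.518 CPM in UQCRFS1 KO with SP-2509. With DMSO it had 6.20 and 6.84 CPM in CYC1 KO, against 14.02 and 15.3 CPM in UQCRFS1 KO. The contrasts differed by 4.69 ± 0.23 (SE; edgeR adjusted p = 2.37e-13). PLCE1-AS1, an antisense RNA whose reads cannot be told apart from those of its partner without strand, differed by -4.70 ± 0.22 (edgeR adjusted p = 1.76e-13), at 2.36 and 2.77 CPM in CYC1 KO with SP-2509, against 4.35 and 4.50 CPM in UQCRFS1 KO with SP-2509, and with DMSO 3.63 and 3.67 CPM in CYC1 KO, against 0.257 and 0.2203 CPM in UQCRFS1 KO.

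The other values rest on low counts in at least 1 group. The hair keratin-associated gene KRTAP4-8 differed by -6.56 ± 0.54 (edgeR adjusted p = 1.87e-09) and the aggrecanase ADAMTS5 by -5.72 ± 0.66 (edgeR adjusted p = 3.59e-07). CYP24A1, which degrades vitamin D, differed by -4.86 and had 13 counts over CYC1 KO and 2 over UQCRFS1 KO with DMSO. ZNF90 differed by -6.88 with 4 counts over CYC1 KO and 0 over UQCRFS1 KO with DMSO, so that fitted value is no bound. In the other direction RP11-513G11.3 differed by 7.31, RP11-307C19.1 by 4.70, TMEM72 by 3.98 and GDAP1L1 by 3.56, each at or below 0.0597 CPM in both UQCRFS1 KO libraries with SP-2509.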

How the results depend on the processing

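The number of genes called between the clones with DMSO, 9985, stayed within 1.5 times under every alternative run: 8489 with DESeq2, 9898 with median-of-ratios factors, 10021 with upper-quartile factors, 9706 with no filter, 9185 with the stricter filter, 9590 from the 4 libraries alone and 8098 to 8648 without 1 library. With the replicate block it was 10768, of which 9970 were among the 9985. The same held for the other 4 contrasts, in all 59 alternatives of the 5 counts. Among genes named in the report, UQCRQ alone gained a call with the replicate block, and none lost one. Directions reversed for genes that were not called: with upper-quartile factors UQCRC2 (-0.02), UQCRB (-0.07), UQCC3 (-0.03), B2M (0.00), MYC (-0.04) and JUNB (-0.06); with the stricter filter UQCRB (-0.03) and JUNB (-0.02); with the 4 libraries alone UQCRB (0.00); and without 1 library UQCRB (range -0.05 to 0.08), UQCR11 (-0.69 to 0.14), UQCC3 (-0.09 to 0.20), MYC (-0.01 to 0.10) and JUNB (-0.04 to 0.09). The cause was not tested. Of the counts of list members under alternatives, 832 stayed within 1.5 times and 70 did not, mostly in lists with few calls. Depth of 43813692 to 50238095 counts per library limits statements on genes of few counts, and 1 clone per knockout limits all of them.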
